A study of Mus musculus with 6 samples.

Results

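Immediate early genes were followed here in 6 tumours that, by their labels, grew from B16F10 cells, a mouse melanoma line, placed under the skin of the right flank of C57BL/6J mice. The members were chosen by symbol, namely Fos, Fosb, Jun, Junb, Egr1, Ier2, Ier3, Dusp1, Klf4 and Klf6, and all 10 were found among the 34745 genes of the table. All 10 also passed the filter on low counts that left 15539 genes for testing. The mice behind 3 of the tumours ate a high cholesterol diet (HCD) and those behind the other 3 a normal diet (ND). Apart from the diet, both groups carried the same strain and the same injected cells by their labels. Age, sex, the length of the diet and the time between removal of a tumour and isolation of its RNA are not among the labels. The labels number the tumours within a diet without saying whether each came from its own animal, so a p-value reflects the spread of these 6 samples and no more.

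Immediate early genes are transcribed within minutes of a signal without new protein synthesis, because the factors that switch them on, such as SRF with its Ets partners and CREB, are already present and are activated by phosphorylation. Their messages and proteins are short-lived, and many of the products are transcription factors that start a later wave of genes, while others, such as Dusp1, shut the signal off. The same genes are also known to respond when tissue is cut, warmed or left without blood flow, so they are read in stored tissue as a sign of how it was handled.

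The libraries held 20351637 to 20918324 counts in HCD and 20622727 to 26228074 counts in ND tumours. Pigment cell genes went against the label of the injected line: Tyr, Dct, Mlana and Oca2 had 0 counts in all 6 libraries, which allows at most 0.0228 CPM (counts scaled to the library size after TMM normalization) over the 6 libraries together, counting error only. Alb, which encodes serum albumin, had 2974 to 4367 CPM in HCD and 3264 to 4064 CPM in ND tumours. The samples are named by their labels only. Muscle content was uneven, with 8 skeletal muscle markers summing to 1828, 198 and 13.3 CPM in HCD 1 to HCD 3 and to 10.6, 1754 and 23.5 CPM in ND 1 to ND 3. In bulk tissue fewer cells of a type and less RNA per cell cannot be told apart.

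Promoter sequence is shown for the 5 members that hold the core of a CREB binding element, since CREB is among the factors named above. RefSeq windows of 250 bases before the transcription start (GRCm38.p6, the same assembly as mm10) were at hand for 8 members: Dusp1, Fos, Fosb, Ier3, Jun, Junb, Klf4 and Klf6. The windows shown are chr12:85473640-85473889 on the plus strand for Fos and, on the minus strand, chr7:19310046-19310295 for Fosb, chr8:84978749-84978998 for Junb, chr17:26508473-26508722 for Dusp1 and chr4:55532476-55532725 for Klf4. Capitals mark the core TGACG on either strand, the full element TGACGTCA that contains it, and the TATA box TATAAA on the sense strand.
Fos: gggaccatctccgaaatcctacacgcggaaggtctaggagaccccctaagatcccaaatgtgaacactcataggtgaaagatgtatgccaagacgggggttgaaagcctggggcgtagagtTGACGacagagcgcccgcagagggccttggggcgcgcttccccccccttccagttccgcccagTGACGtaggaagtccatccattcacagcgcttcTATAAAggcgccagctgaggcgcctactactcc
Fosb: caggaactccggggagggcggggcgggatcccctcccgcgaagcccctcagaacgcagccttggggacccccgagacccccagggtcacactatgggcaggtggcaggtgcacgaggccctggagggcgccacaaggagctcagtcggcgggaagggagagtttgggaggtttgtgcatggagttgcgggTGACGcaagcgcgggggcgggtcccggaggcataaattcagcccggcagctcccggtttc
Junb: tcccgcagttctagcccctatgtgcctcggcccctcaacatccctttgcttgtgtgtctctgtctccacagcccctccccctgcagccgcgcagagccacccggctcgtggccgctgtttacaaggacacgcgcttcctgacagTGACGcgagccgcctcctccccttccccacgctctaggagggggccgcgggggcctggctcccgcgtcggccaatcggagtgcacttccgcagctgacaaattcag
Dusp1: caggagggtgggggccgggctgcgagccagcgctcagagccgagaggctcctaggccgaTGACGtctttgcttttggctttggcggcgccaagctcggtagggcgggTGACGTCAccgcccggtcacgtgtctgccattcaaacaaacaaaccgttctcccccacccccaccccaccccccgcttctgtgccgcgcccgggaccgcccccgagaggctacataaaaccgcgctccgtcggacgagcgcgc
Klf4: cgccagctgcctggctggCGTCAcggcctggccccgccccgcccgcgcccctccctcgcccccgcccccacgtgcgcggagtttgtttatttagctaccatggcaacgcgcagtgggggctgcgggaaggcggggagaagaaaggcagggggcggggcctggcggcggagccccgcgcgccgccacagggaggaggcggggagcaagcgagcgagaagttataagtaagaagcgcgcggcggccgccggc

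The core TGACG was in 5 of the 8 member windows and in 17.8% of the 32851 windows of the whole table. Fos held it at 66 and 129 bases before the start, together with a TATA box at 33 bases. The full element was present in Dusp1 alone among the 8 members, at 143 bases before the start, and in 1.55% of all windows. No member window held a CArG box, the sequence that SRF binds, within these 250 bases, and 1.47% of all windows did. The AP-1 site TGANTCA on either strand was in 0 of the 8 and in 6.75% of all windows, and the GC box GGGCGG on either strand in 7 of the 8 and in 32.7% of all windows. These matches describe the letters only.

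All 10 genes were expressed in every tumour, with no fewer than 176 counts in any library. Levels between genes were compared as CPM per kilobase of merged exons of the GENCODE M21 annotation. The deposited FPKM values were not used for this, because the gene length they imply differed from the merged exons in both directions. It was 7520 bases for Egr1 against 4484 merged, 3792 bases for Fos against 2352 merged and 3751 bases for Fosb against 6243 merged. The order of genes depends on this choice. In mean FPKM Egr1 (26.3) fell below Klf6 (42.5), Ier2 (33.1) and Klf4 (31.2), and Jun (13.2) lay above Dusp1 (11.9). On the per-length scale Junb stood first with 89.6 ± 20.9 CPM per kilobase (SD, n = 6), and 2.58% of tested genes with a length were higher. Ier3 (45.6 ± 18.5), Klf4 (45.2 ± 9.46), Egr1 (44.1 ± 8.06) and Klf6 (40.8 ± 5.37 CPM per kilobase) followed with overlapping ranges. Ier2 had 33.1 ± 3.38 CPM per kilobase, and its range overlapped that of Klf6 but not that of Dusp1, at 18.5 ± 3.83. Jun had 13.2 ± 2.16 and Fos 12.1 ± 1.93 CPM per kilobase, and Jun was the higher of the pair in 4 of 6 libraries. Fosb came last with 1.54 ± 0.158 CPM per kilobase, below Fos in all 6 libraries, and 71.7% of tested genes were higher. Fos, the gene most often read as a sign of stimulation, thus lay far below Junb and Egr1 in all 6 tumours.

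**Figure D1:**
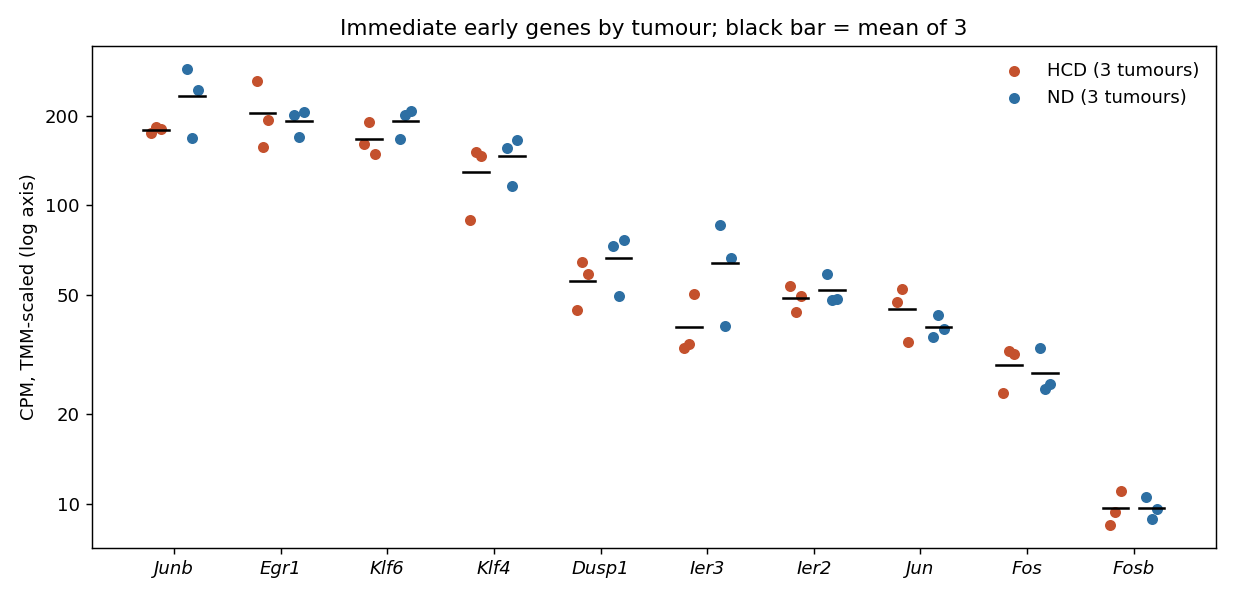
Level of each immediate early gene in each tumour, in CPM on a log axis, with HCD tumours in orange left of ND tumours in blue and a black bar at the mean of 3. Every gene has overlapping diets, and the widest scatter is that of Ier3, with 33.2 to 50.4 CPM in HCD and 39.3 to 85.8 CPM in ND tumours.

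The AP-1 transcription factor is a dimer of a Fos and a Jun protein, and its 4 member genes did not move as a block. Fos (ENSMUSG00000021250, chromosome 12, 85473890 to 85477273) encodes the founding Fos protein and had 23.4, 32.4 and 31.9 CPM in HCD 1 to HCD 3, against 33.1, 24.2 and 25.1 CPM in ND 1 to ND 3. HCD 1, ND 2 and ND 3 were low and the other 3 libraries high, so each diet held both. The log2 fold change of HCD over ND was 0.09 ± 0.17 (SE), with a 95% interval of -0.32 to 0.50 and an edgeR adjusted p of 0.919. Fosb (ENSMUSG00000003545, chromosome 7, 19302696 to 19310051), a close relative of Fos, had 8.48, 9.37 and 11.1 CPM in HCD tumours, against 10.5, 8.85 and 9.56 CPM in ND tumours. It was the member with the narrowest range, the highest library being 1.30 times the lowest, and the diet means were 9.64 ± 1.31 CPM in HCD and 9.65 ± 0.848 CPM in ND tumours (SD, n = 3 each). Its log2 fold change had a 95% interval of -0.36 to 0.36 (edgeR adjusted p = 0.998).

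Jun (ENSMUSG00000052684, chromosome 4, 95049034 to 95052222), an intronless gene for the main partner of Fos, had 47.4, 52.3 and 34.7 CPM in HCD tumours, against 36.1, 42.8 and 38.4 CPM in ND tumours. HCD 1 and HCD 2 lay above all 3 ND libraries and HCD 3 below them. Its log2 fold change was 0.20 ± 0.16 (SE; 95% interval -0.18 to 0.57, edgeR adjusted p = 0.843), and 232 of its exonic bases are shared with the antisense gene Junos. Junb (ENSMUSG00000052837, chromosome 8, 84974484 to 84978718), whose protein competes with Jun for partners and drives a weaker response, had 174, 183 and 181 CPM in HCD tumours, against 287, 169 and 243 CPM in ND tumours. The 3 HCD libraries were within 1.05 times of each other, and they lay between ND 2 below and ND 1 and ND 3 above. Junb had a log2 fold change of -0.38 ± 0.18 (SE; 95% interval -0.80 to 0.04, edgeR adjusted p = 0.839). Without ND 1 this was -0.20 and without ND 2 it was -0.56, and 173 of its exonic bases overlap Prdx2 on the opposite strand. Since the strand setting of the counting is unknown, reads of such overlaps cannot be assigned.

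The balance between Junb and Jun differed from tumour to tumour. Junb over Jun, both per kilobase, was 5.10, 4.86 and 7.21 in HCD 1 to HCD 3, against 11.03, 5.46 and 8.77 in ND 1 to ND 3. Fos over Fosb was steadier, at 7.33, 9.18 and 7.65 in HCD tumours and 8.35, 7.27 and 6.98 in ND tumours. The size of this ratio depends on the gene lengths used, and in mean FPKM Fos had 7.47 and Fosb 2.57. Egr1 over Fos was 5.84, 2.55 and 3.19 in HCD tumours, against 3.18, 3.66 and 4.28 in ND tumours, so HCD 1 and HCD 2 were the 2 ends of it. These ratios are descriptions, with no test.

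Among the zinc finger factors, Egr1 (ENSMUSG00000038418, chromosome 18, 34859823 to 34864984), a direct target of the ERK kinases through SRF and its Ets partners, had 261, 157 and 194 CPM in HCD tumours, against 201, 169 and 205 CPM in ND tumours. HCD 1 was the highest and HCD 2 the lowest of the 6 libraries, so the HCD tumours enclosed the whole ND range. Its log2 fold change was 0.09 ± 0.18 (SE; 95% interval -0.34 to 0.52, edgeR adjusted p = 0.921) and -0.13 without HCD 1. Klf4 (ENSMUSG00000003032, chromosome 4, 55527143 to 55532466), a factor of epithelial differentiation and one of the set that reprograms cells to pluripotency, had 89.6, 152 and 147 CPM in HCD tumours, against 156, 116 and 166 CPM in ND tumours. HCD 1 was alone at the bottom, and the log2 fold change of -0.17 ± 0.22 (SE; 95% interval -0.70 to 0.35, edgeR adjusted p = 0.887) was 0.03 without it. Klf6 (ENSMUSG00000000078, chromosome 13, 5861482 to 5870394), a widely expressed relative, had 161, 191 and 149 CPM in HCD tumours, against 166, 200 and 207 CPM in ND tumours. HCD 1 and HCD 3 lay below all ND libraries, with a log2 fold change of -0.20 ± 0.12 (SE; 95% interval -0.48 to 0.09, edgeR adjusted p = 0.839).

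The last 3 members do not act as DNA-binding activators of this kind. Dusp1 (ENSMUSG00000024190, chromosome 17, 26505590 to 26562128) encodes a nuclear phosphatase that inactivates p38, JNK and ERK kinases, and had 44.7, 64.4 and 58.8 CPM in HCD tumours, against 73.0, 49.6 and 76.8 CPM in ND tumours. HCD 1 and ND 2 were the lowest, and the log2 fold change was -0.25 ± 0.20 (SE; 95% interval -0.72 to 0.22, edgeR adjusted p = 0.843). Ier2 (ENSMUSG00000053560, chromosome 8, 84661331 to 84662852), an intronless gene for a nuclear protein, had 53.6, 43.8 and 49.6 CPM in HCD tumours, against 58.8, 48.2 and 48.6 CPM in ND tumours. Its log2 fold change was -0.08 ± 0.11 (SE; 95% interval -0.35 to 0.19, edgeR adjusted p = 0.895), and 0.02 without ND 1.

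Ier3 had the widest range and the lowest p of the members. Ier3 (ENSMUSG00000003541, chromosome 17, 35821684 to 35822923) encodes a protein that modulates cell death and ERK signalling. It had 33.2, 34.2 and 50.4 CPM in HCD tumours, against 85.8, 39.3 and 66.4 CPM in ND tumours. ND 1 stood at the top and HCD 1 at the bottom, 2.58 times apart, while HCD 3 lay above ND 2, so the diets overlapped. The log2 fold change was -0.70 ± 0.30 (SE), with a 95% interval of -1.40 to -0.0011, an unadjusted p of 0.0497 and an edgeR adjusted p of 0.839. It was -0.43 without ND 1 and -0.95 without ND 2.

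Between the diets, 0 of the 10 genes passed the edgeR test over all 15539 tested genes (the background was 0%, or 0 genes, with a smallest adjusted p of 0.839). At an unadjusted p under 0.05 there was 1 member, Ier3, lower in HCD tumours, where 3.49% of all tested genes were lower and 1.81% higher, or 5.30% (824 genes) in either direction. This count of members was 0 with limma-voom, with DESeq2 size factors, on log2 FPKM, without HCD 1 and without ND 3, and it was 2 by the DESeq2 Wald test, without a filter and without HCD 3 and 3 without ND 2. DESeq2 called 6 (0.0386%) of the 15539 tested genes and limma-voom 0, with no member among them. Fold changes were negative for 7 members and positive for 3, beside 47.0% negative among all tested genes, and the members' median log2 fold change was -0.13 against 0.01 for all tested genes. For 0 of the 10 genes did the 3 HCD libraries lie fully above or below the 3 ND libraries, as they did for 11.1% of tested genes. The intervals given with each gene bound the change these data allow, and a p that missed the threshold does not show equal levels.

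**Figure D2:**
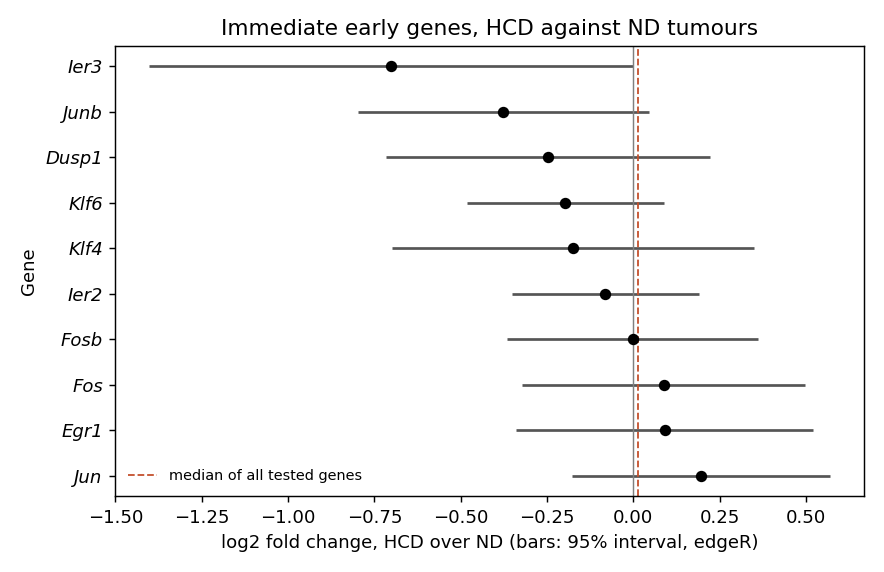
log2 fold change of HCD over ND for each immediate early gene, with 95% intervals of the edgeR fit; the dashed line is the median of all tested genes at 0.01. The interval of Ier3, -1.40 to -0.0011, alone ends below 0, and no gene passed the adjusted test.

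Variation between single tumours was larger than counting error for each member. The SD of log2 CPM over the 6 libraries ran from 0.15 for Ier2 and Fosb to 0.55 for Ier3, with a member median of 0.24, whereas counting alone gives 0.02 for Junb and 0.10 for Fosb. Among the 11132 tested genes of at least 5 CPM the median SD was 0.14, and all 10 members were above it. For Ier3, 4.76% of those genes had a larger SD, for Klf4 12.4%, for Junb 14.2% and for Dusp1 14.5%, while for Fosb 45.3% and for Ier2 45.6% did. The SD pooled within diets was 0.47 for Ier3 and 0.36 for Klf4, so tumours on the same diet also differed.

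No library was high or low for all 10 genes. ND 1 was the highest library for 4 members (Fos, Junb, Ier2 and Ier3) and ND 3 for 3 (Dusp1, Klf4 and Klf6), and neither was the lowest for any. HCD 1 was the lowest for 5 (Fos, Fosb, Ier3, Dusp1 and Klf4) and the highest for Egr1. The mean of the centred log2 levels over the 10 genes was -0.16, -0.03 and -0.02 in HCD 1 to HCD 3, against 0.22, -0.14 and 0.13 in ND 1 to ND 3. By this mean ND 1 and ND 3 were the high libraries and HCD 1 and ND 2 the low ones. Members above their own mean numbered 3, 5 and 4 in HCD 1 to HCD 3 and 8, 2 and 6 in ND 1 to ND 3. The summed level of the 10 genes was 897, 919 and 906 CPM in HCD tumours, against 1107, 867 and 1086 CPM in ND tumours, or 0.0890% to 0.0932% of counts in HCD and 0.0874% to 0.108% in ND tumours. The HCD mean minus the ND mean of the centred levels was -0.14, with SDs of 0.0826 within HCD and 0.188 within ND (n = 3 each).

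**Figure D3:**
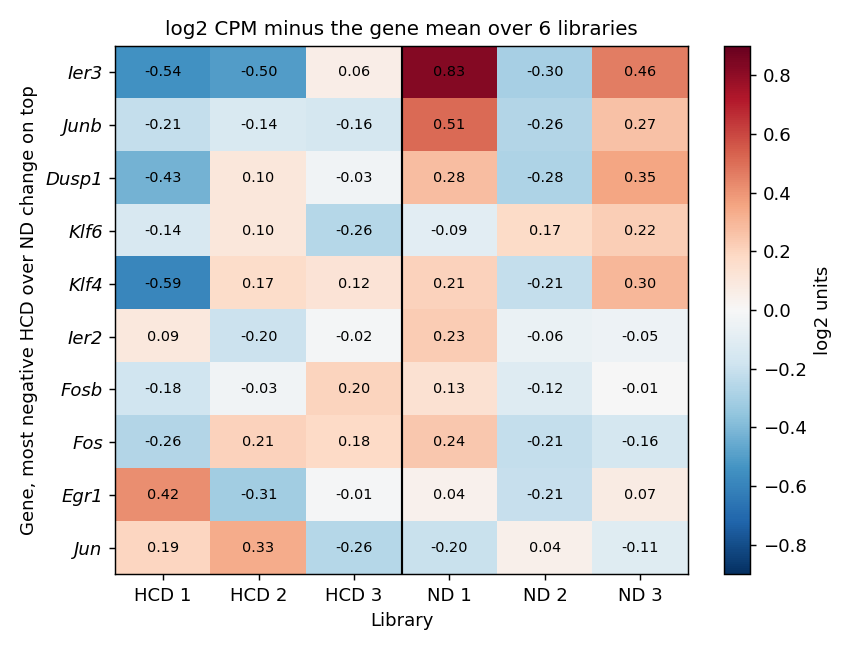
log2 CPM of each immediate early gene in each library minus the mean of that gene over the 6 libraries, with HCD libraries left of the black line, ND libraries right of it, and genes ordered by fold change. ND 1 reaches 0.83 for Ier3 and 0.51 for Junb, while Egr1 has its highest value, 0.42, in HCD 1, where Klf4 has its lowest, -0.59.

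The genes fell into different patterns over the 6 tumours. Likeness was measured as the root mean square difference of the centred log2 levels over the 6 libraries, which ran from 0.11 to 0.69 over the 45 pairs of members. The closest pair was Dusp1 with Klf4, at 0.11, followed by Fos with Fosb at 0.13, Fosb with Ier2 at 0.16 and Junb with Dusp1 at 0.17. The most unlike pair was Jun with Ier3, at 0.69, which lay on opposite sides of their means in all 6 libraries. Fos and Egr1 were 0.38 apart and lay on the same side in 2 of 6 libraries. No pair was on the same side in all 6.

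Other genes came closer to single members. Members, mitochondrially encoded genes and genes with only a predicted, clone or accession name were left out of this search. Of the remaining tested genes, the 3 nearest to Egr1 were Tmprss2, a serine protease gene (0.0696), Dusp6, whose product is the cytoplasmic phosphatase of ERK (0.0726), and Cdkl3, a kinase gene (0.0771). Dusp6 had 346, 238 and 276 CPM in HCD tumours, against 297, 262 and 294 CPM in ND tumours, with HCD 1 highest and HCD 2 lowest as for Egr1. The nearest to Fos were the protease inhibitor gene Serpinb8 (0.0537), the bZIP factor gene Cebpb (0.0591) and the TNF receptor superfamily gene Tnfrsf18 (0.0618), and those nearest to the mean of the 10 members were Map4k3, Pja2 and Gmcl1 (0.0294 to 0.0325). These nearest genes were picked from the many remaining tested genes over 6 libraries, and the values are descriptions.

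Markers of other cells moved with some of these patterns. The 8 neutrophil markers summed to 92.3, 101 and 104 CPM in HCD 1 to HCD 3, against 199, 113 and 179 CPM in ND 1 to ND 3, so ND 1 and ND 3, the libraries with the most Ier3 and Junb, also had the most neutrophil transcripts. Fold changes were negative for 7 of these 8 markers, and their most abundant one, the granulocyte growth factor receptor gene Csf3r, had 31.9, 43.8 and 30.4 CPM in HCD tumours against 49.3, 44.7 and 59.8 CPM in ND tumours. HCD 1 and ND 2, lowest in the mean of the immediate early genes, had the highest sums of muscle markers. None of the neutrophil or muscle markers was at 0 in all libraries. The part of these cells in the levels of the 10 genes was not tested.

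**Figure D4:**
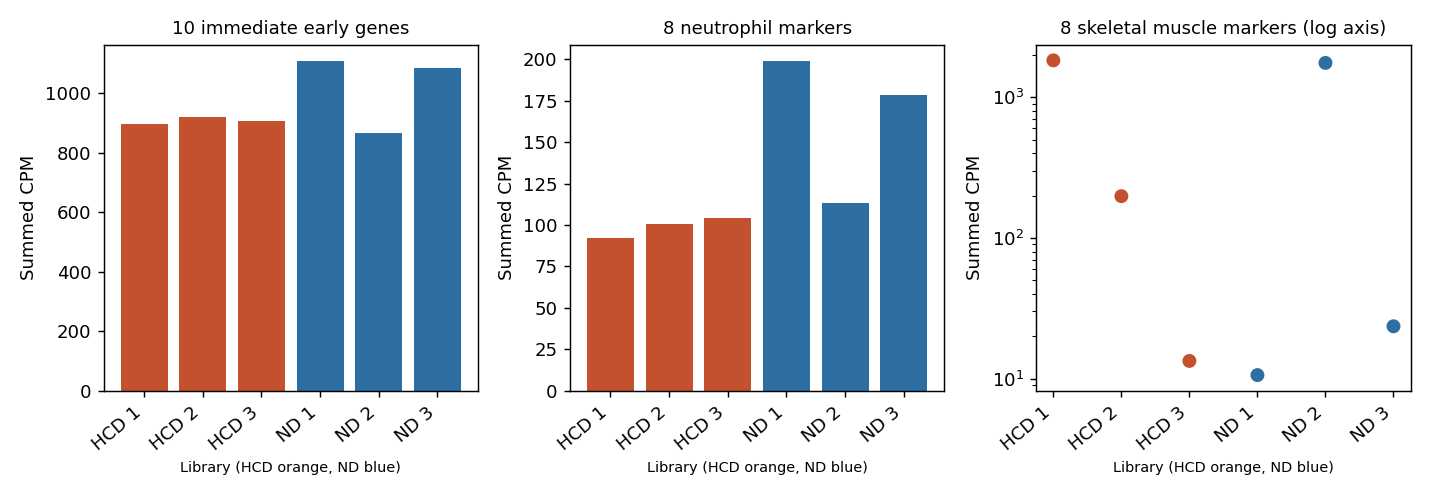
Summed CPM per library of the 10 immediate early genes, of 8 neutrophil markers and, on a log axis, of 8 skeletal muscle markers, with HCD libraries left of ND libraries. The immediate early sums of 1107 (ND 1) and 1086 CPM (ND 3) stand beside the neutrophil sums of 199 and 179 CPM, and the muscle sums of 1828 (HCD 1) and 1754 CPM (ND 2) beside immediate early sums of 897 and 867 CPM.

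Macrophage markers (10 genes) summed to 732 to 1597 CPM in HCD and 491 to 1006 CPM in ND tumours, T cell markers (10) to 64.3 to 151 and 22.4 to 91.8 CPM, and endothelial markers (8) to 189 to 388 and 172 to 217 CPM, again HCD before ND. All 3 sums were lowest in ND 1 and highest in HCD 2, which is not the order of the immediate early genes. Fibroblast markers (8) summed to 2523 to 3675 CPM in HCD and 2736 to 3994 CPM in ND tumours, with ND 1 highest. B cell (6), adipocyte (6), red blood cell (6), epidermal (7) and pigment cell (9) markers summed to at most 191 CPM in any library, with the epidermal gene Lor at 0 counts in all 6 and Mitf the highest of the pigment list.

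Further genes of the early response were read from a list of 53, of which 52 were tested. None passed the edgeR test, 31 had negative and 21 positive fold changes, and the median log2 fold change was -0.10. The 3 HCD libraries lay below all 3 ND libraries for Hbegf, Cxcl1 and Ppp1r15a and above them for Arc, that is 3 and 1 of 52, where 6.36% and 4.74% of all tested genes did. Hbegf, an EGF receptor ligand gene, had the smallest p of the list, with 71.1, 72.0 and 68.3 CPM in HCD tumours, against 101, 84.0 and 89.7 CPM in ND tumours. Its log2 fold change was -0.38 ± 0.08 (SE), with an unadjusted p of 0.0025 and an edgeR adjusted p of 0.839.

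The next 5 by p were also lower in HCD tumours in their fitted values, and all 5 had an edgeR adjusted p of 0.839. Cxcl1, a chemokine that draws neutrophils, averaged 5.71 ± 0.820 CPM in HCD and 10.1 ± 4.20 CPM in ND tumours (SD, n = 3 each). Ppp1r15a, a phosphatase regulator of the stress response, averaged 29.3 ± 1.77 and 34.6 ± 2.39 CPM in HCD and ND tumours. Nfkbia, the inhibitor of NF-kB, had 59.4, 67.5 and 60.7 CPM in HCD tumours, against 74.0, 65.6 and 89.3 CPM in ND tumours. Socs3, an inhibitor of cytokine signalling, had 53.4, 70.9 and 62.2 CPM in HCD tumours against 95.7, 59.0 and 102 CPM in ND tumours, and Tiparp had 50.3, 65.7 and 62.1 CPM against 89.2, 56.3 and 87.2 CPM. In both, ND 1 and ND 3 were the high libraries, as for Ier3 and Junb.

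The 4 genes of the list with the highest FPKM were Dusp6, Dusp4, Mcl1 and Plk2. Mcl1, a survival gene of the Bcl2 family with a short-lived message, had 319 to 370 CPM in HCD and 318 to 331 CPM in ND tumours, and Plk2, a polo-like kinase gene, 162 to 186 and 170 to 184 CPM. Dusp4, another nuclear phosphatase of the kinases, had 221 to 264 CPM in HCD and 210 to 317 CPM in ND tumours. Their log2 fold changes were 0.06 ± 0.07, 0.0037 ± 0.07 and -0.15 ± 0.15 (SE), with edgeR adjusted p of 0.880, 0.991 and 0.869. Egr3, a relative of Egr1, had 0.438 to 1.55 CPM in HCD and 0.728 to 1.03 CPM in ND tumours, and the orphan nuclear receptor gene Nr4a1 28.7 to 33.3 and 25.8 to 34.0 CPM. Egr3 and Nr4a1 were named after their values were seen.

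Kinases and factors that act on immediate early promoters gave 0 calls among 31 tested genes, with 11 positive and 20 negative fold changes and a median of -0.05. Map2k6, a kinase that activates p38, had 32.4, 32.9 and 34.3 CPM in HCD tumours, against 58.3, 40.5 and 52.0 CPM in ND tumours. Its log2 fold change was -0.60 ± 0.14 (SE; edgeR unadjusted p = 0.00324, adjusted p = 0.839). Mapk14, the main p38 kinase gene, had 119 to 126 CPM in HCD and 104 to 112 CPM in ND tumours, a log2 fold change of 0.19 ± 0.06 (SE; edgeR adjusted p = 0.839). Map2k6 and Mapk14 were among the genes of the list whose diets did not overlap. The 3 HCD libraries lay below all 3 ND libraries for 5 of the 31 and above them for 3. Among all tested genes these shares were 6.36% and 4.74%. Mapk3, which encodes ERK1 and had the highest FPKM of the list, had 260 to 294 and 270 to 311 CPM in HCD and ND tumours.

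Other leucine zipper partners of AP-1 (12 tested) had 8 positive and 4 negative fold changes, a median of 0.07 (-0.03 without HCD 2) and 0 calls. Atf2 had a log2 fold change of -0.26 ± 0.10 and Atf4 of 0.0012 ± 0.10 (SE; edgeR adjusted p = 0.839 and 0.998). Factors that act on the decay of AU-rich messages, as those of many immediate early genes are, gave 0 calls among 12 (Elavl1, which is known to stabilise such messages, is 1 of them), with 5 positive fold changes and a median of -0.01. Tob2 had 64.0 ± 2.23 CPM in HCD and 51.4 ± 7.73 CPM in ND tumours, Tob1 108 ± 5.78 and 91.9 ± 10.8 CPM, and Zfp36l2 211 ± 18.8 and 186 ± 12.1 CPM (SD, n = 3 each), each with an edgeR adjusted p of 0.839.

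Heat shock genes, which are also read as a sign of warm handling, gave 0 calls among 13 tested, with 11 positive and 2 negative fold changes and a median log2 fold change of 0.09. The inducible genes Hspa1a and Hspa1b, named after their values were seen, had low counted levels in every tumour. Hspa1a had 1.59, 3.24 and 1.75 CPM in HCD tumours against 1.34, 2.08 and 1.26 CPM in ND tumours. Hspa1b had 3.81, 6.72 and 2.92 CPM in HCD tumours against 2.95, 3.29 and 2.81 CPM in ND tumours. How reads that match both of these near-identical copies were counted is not known, so their levels may be understated. HCD 2 was the highest library for both, and also for Hsph1, Dnajb1 and Hspa8, while Hsp90aa1 had 660 CPM in both HCD 2 and ND 2. The rest peaked elsewhere: Hspe1 and Hspb1 in HCD 1, Bag3 and Hsp90ab1 in HCD 3, Dnaja1 and Hspa5 in ND 1, and Hspd1 in ND 2. The mean centred log2 level of the 13 genes was 0.19, 0.21 and -0.14 in HCD 1 to HCD 3. In ND 1 to ND 3 it was -0.16, 0.03 and -0.13. Bag3, a co-chaperone gene, had 58.6, 58.9 and 60.8 CPM in HCD tumours, against 50.02, 48.6 and 54.1 CPM in ND tumours (log2 fold change 0.22 ± 0.07 SE, edgeR adjusted p = 0.839). Hsp90ab1 had 2237 to 2385 CPM in HCD and 2148 to 2249 CPM in ND tumours, and Hspa5, the chaperone of the endoplasmic reticulum, 861 to 904 and 928 to 1089 CPM. Mitochondrially encoded messages (13 genes) gave 0 calls with a median of -0.05, and summed to 28869 to 33893 CPM in HCD and 30961 to 34867 CPM in ND tumours; mt-Co1 was the most abundant, at 14682 ± 1223 and 14977 ± 807 CPM, and mt-Nd2 and mt-Nd4 had log2 fold changes of -0.14 ± 0.13 and -0.11 ± 0.11 (SE), with ranges of -0.25 to -0.05 and -0.20 to -0.03 when 1 library was left out. How the tumours were handled before RNA isolation is not in the labels, and its part in these levels was not tested.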

How the data were processed

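RNA was measured in 6 tumours, 3 HCD and 3 ND, grouped and numbered by their titles. The authors deposited raw read counts and FPKM per gene; per the submitters' processing notes, their tools were HTSeq, edgeR, TopHat2 2.0.9 and CASAVA 1.8 on mm10 (roles unnamed). For the gene annotation and the strand setting of the counting no source was at hand. The deposited FPKM equalled the count over the library total and a fixed length. That length exceeded the merged exons of GENCODE M21 by over 1.2 times for 4 of the 10 members. It fell short of them by over 1.2 times for 2 members, so genes were compared as CPM per kilobase of merged exons.

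Testing of counts used glmQLFTest in edgeR 4.0.16 under R 4.3.3 (legacy quasi-likelihood form, diet as the only term, TMM factors of 0.979 to 1.02, minimum count 10 and minimum total 15, prior count 0.125). P-values were adjusted by Benjamini-Hochberg over all 15539 tested genes with a threshold of 0.05. Each standard error is the absolute fold change divided by the root of F. Centred levels used log2 CPM with 0.5 added to each count. The code was tested on simulated data. Replicates differed by far more than counting noise (chi-square per degree of freedom 16.9 to 32.0), so none was merged.

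Alternatives were DESeq2 1.42.0 (size factors, Wald test), upper quartile factors, library totals, other filters, limma 3.58.1 (voom, and log2 FPKM with 1 or 0.1 added, for genes above 1 FPKM in 3 libraries), adjusted deviances, a replicate block, a threshold of 0.1 and leaving out each library. The members and lists were chosen with earlier results of these data known. Named genes were the members and, from the other lists, those with the smallest p or the highest FPKM (for marker lists, the highest CPM or 0 counts) and the 3 nearest profiles; some marker genes taken by this rule are given only within the sums, and 1 other gene it takes is not reported here. Sequences came from RefSeq tables of GRCm38.p6.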

Additional observations from a re-analysis of the deposited data

How the results depend on the processing

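No member passed the test under any alternative run. The count of called genes was 0 except for 6 lower genes by the DESeq2 Wald test and 2 lower genes without ND 2, so leaving out 1 library gave 0 to 2, and genes with an unadjusted p under 0.05 numbered 378 without ND 1, 525 without ND 3 and 1353 without ND 2, against 824 in all 6 libraries. The members' median log2 fold change ran from -0.15 to -0.05 when 1 library was left out, and the HCD minus ND difference of their centred levels from -0.24 to -0.07. The SD of the centred mean ran from 0.12 to 0.17 there. The causes of the changes below were not tested.

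Directions turned for values near 0. With 1 library left out the median log2 fold change ran from -0.03 to 0.15 for the AP-1 partners, -0.04 to 0.03 for the decay factors (0.00040 with library totals) and -0.09 to 0.02 for the mitochondrial genes, and it kept its sign for the other lists. Fosb, at -0.0016, was 0.00058 with DESeq2 size factors, 0.010 with library totals, 0.0012 by DESeq2, 0.00077 with adjusted deviances, and 0.0053 and 0.0062 on log2 FPKM with 1 and 0.1 added. Dusp6, at 0.013, was -0.0018 by limma-voom, and with upper quartile factors Plk2 was -0.0025 and Atf4 -0.0067. With 1 library left out the log2 fold change ran from -0.11 to 0.082 for Fosb, -0.13 to 0.25 for Egr1, -0.15 to 0.019 for Ier2, -0.31 to 0.031 for Klf4, -0.15 to 0.13 for Dusp6, -0.28 to 0.017 for Dusp4, -0.031 to 0.072 for Plk2, -0.13 to 0.00080 for Mapk3, -0.069 to 0.079 for Atf4 and -0.10 to 0.024 for mt-Co1. It kept its sign for Fos, Jun, Junb, Ier3, Dusp1 and Klf6, with ranges of 0.0084 to 0.24, 0.08 to 0.35, -0.56 to -0.20, -0.95 to -0.43, -0.42 to -0.11 and -0.30 to -0.12.

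Tumours with the same number did not deviate together (correlations of -0.335, 0.154 and 0.073 for numbers 1, 2 and 3), so the numbers were not taken as pairs; with the replicate block edgeR called 0 genes, and Dusp6 was -0.0023. With 3 tumours a diet, 3 against 3 limits what a test of 1 gene can show, and at the lowest count of 176, in Fosb, counting error makes up a large part of the spread (SD 0.10 against 0.15 in log2 units).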
